A study of Mus musculus with 12 samples.

Results

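This comparison sets colon tumours of mice that lacked ST2 in both compartments of a bone marrow chimera against tumours of chimeras that were wild type throughout. Its members are 6 of the 12 libraries of the series: 3 labelled as St2-/- marrow in St2-/- hosts, written St2KO_to_St2KO, and 3 labelled as wild-type (WT) marrow in WT hosts, written WT_to_WT. They were chosen by their labels, with earlier results of these data known. They are described across the 15060 genes that passed a filter on low counts, of 24062 in the table. All mice were males of the Balb/c background. Hosts were irradiated with 2 doses of 5 Gy, were given 8 weeks to rebuild their blood from the donor marrow, and then had 6 weekly injections of azoxymethane (AOM), a carcinogen that causes colon tumours in mice, at 10 mg per kg. Tumours were taken at 13, 13 and 14 weeks after the last injection in WT_to_WT and at 14, 14 and 13 weeks in St2KO_to_St2KO (replicates 1 to 3). RNA came from whole tumours, so each library mixes tumour epithelium, stroma and blood-derived cells. Irradiated hosts keep radioresistant cells of their own, and the labels give neither the extent of marrow replacement nor the exons that the St2 allele lacks. Labels of the WT hosts carry numbers of 5 digits and those of the St2-/- hosts numbers of 3 digits, so a cohort difference and the host genotype cannot be told apart. The other 6 libraries, of mixed chimeras with St2-/- marrow in WT hosts (St2KO_to_WT) or WT marrow in St2-/- hosts (WT_to_St2KO), entered the fit and are given beside some results.

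ST2, encoded by Il1rl1, is the receptor subunit that binds interleukin-33, an alarm cytokine held in the nuclei of epithelial and stromal cells and released when they are damaged. ST2 signals with the co-receptor encoded by Il1rap through MYD88 and IRAK kinases to NF-kB and MAP kinases. In the gut, ST2 is known from mast cells, group 2 innate lymphoid cells, regulatory T cells and some stromal and epithelial cells, and a soluble form acts as a decoy for interleukin-33. Interferon-gamma, which recurs below, is made mainly by T cells and NK cells and acts through JAK kinases and STAT proteins on nearly every cell type to raise antigen presentation and antimicrobial genes.

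Gene counts summed to between 10638001 and 12962496 per library, so depth differed little. WT_to_WT replicate 1 stood apart: on the first principal component, which held 38.9% of the variance over the 6 libraries, it lay at 79.1 and the other 5 between -31.1 and 14.4. Summed goblet cell markers were 22825 CPM (counts scaled to a common library size) in that library and 4112 to 9048 CPM in the other 5, and summed fibroblast and collagen genes were 2079 CPM in it and 3077 to 9429 CPM in the other 5. Epcam, an epithelial adhesion molecule, was high in all 6 libraries, at 1756 to 2313 CPM. CPM values carry the TMM scaling for library size and composition, and fold changes come from edgeR on the log2 scale. SE is an approximate standard error, the absolute log2 fold change divided by the square root of the edgeR F statistic.

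Il1rl1 itself (chr1:40429570-40465415 on GRCm38) read 53.5, 132 and 275 CPM in WT_to_WT and 13.4, 7.91 and 10.7 CPM in St2KO_to_St2KO, in the order of the replicates used throughout. All 3 St2KO_to_St2KO libraries lay below all 3 WT_to_WT libraries, which themselves spanned a wide range. On the log2 scale the difference was -3.84 (SE 0.75, edgeR adjusted p = 0.148), which did not pass the threshold of 0.05 over all genes. The structure of the allele is not given, so the remaining reads cannot be assigned to intact or altered transcripts. In whole tumours, fewer cells of a type and less RNA per cell cannot be told apart, for this gene and for all that follow.

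The other genes of the interleukin-33 pathway showed smaller differences. Il33, the ligand, read 13.3, 35.5 and 73.2 CPM in WT_to_WT and 42.6, 54.9 and 50.8 CPM in St2KO_to_St2KO. The ranges overlapped and the log2 fold change was 0.28 (SE 0.66), with a sign that turned to -0.13 without WT_to_WT replicate 1. Il1rap, the co-receptor, read 7.98, 6.09 and 9.47 CPM against 14.1, 9.02 and 9.9 CPM, with overlap. Myd88, the adaptor shared with Toll-like receptors, read 80.7, 85.9 and 74.7 CPM in WT_to_WT and 50.2, 60 and 53.2 CPM in St2KO_to_St2KO, without overlap (log2 fold change -0.56, SE 0.16, edgeR adjusted p = 0.215). Of the 13 tested genes of the list of interleukin-33, ST2 and partners, 0 were called by edgeR. Only 2, Il1rl1 and Myd88, had an edgeR unadjusted p under 0.05. DESeq2 and limma-voom each called 2 lower, beside 1.75% and 6.53% lower over all genes. The 5 nearest tested genes on each side of Il1rl1 include its relatives Il1r2, Il1r1, Il1rl2, Il18r1 and Il18rap. Their log2 fold changes lay between -0.47 (Slc9a2) and 0.93 (Slc9a4), and none of the 10 had an edgeR unadjusted p below the 0.0508 of Map4k4. Within 5 Mb of Il1rl1, 10.9% of 64 tested genes had an unadjusted p under 0.05, and within 10 Mb 14.8% of 81 (8 lower, 4 higher), beside 13.7% of all genes tested.

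Across all genes, edgeR called 4 of 15060 (0.0266%). The 1 gene that rose (0.00664%) was Wipi1, and the 3 that fell (0.0199%) were Mfap1a, Tcfl5 and Arl2bp. At an unadjusted p under 0.05 there were 1096 lower genes (7.28%) and 971 higher genes (6.45%). All 3 St2KO_to_St2KO libraries lay below all 3 WT_to_WT libraries for 1747 genes (11.6%) and above them for 1839 (12.2%). The middle 90% of log2 fold changes lay between -0.82 and 0.97, with a median of -0.01 and a median SE of 0.26. Other tools gave longer lists. DESeq2 called 473 genes (3.14%), 264 lower (1.75%) and 209 higher (1.39%). With limma-voom and quality weights 1722 (11.4%) were called, 983 lower (6.53%) and 739 higher (4.91%). Both called 444 genes, which is 93.9% of the DESeq2 calls and 25.8% of the limma-voom calls, and 443 of these also had an edgeR unadjusted p under 0.05. Counts below therefore name the tool and the threshold. The plot of all genes shows the 4 calls at its edges and the interferon-gamma genes as a cloud to the left.

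**Figure D1:**
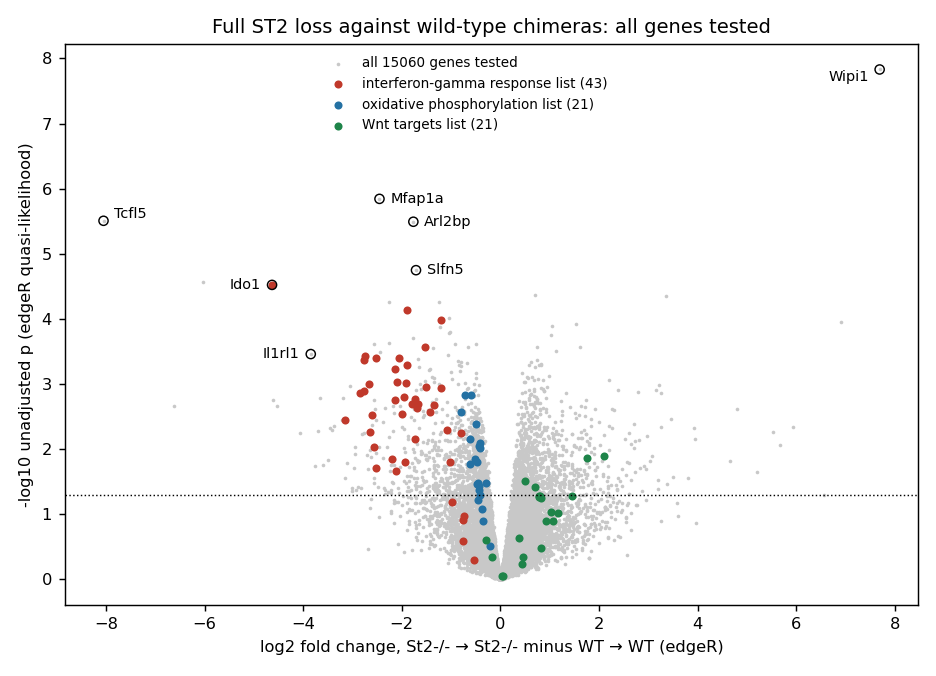
Each point is 1 of 15060 genes, with its log2 fold change (St2KO_to_St2KO minus WT_to_WT, edgeR) across and -log10 of its unadjusted p upward; the dotted line marks the level of 0.05. The 43 tested genes of the interferon-gamma response list (red) all lie left of 0, the 21 oxidative phosphorylation genes (blue) lie left of 0 with small changes, and 19 of 21 Wnt targets (green) lie right of 0.

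Wipi1, whose product binds phosphoinositides on forming autophagosomes, was nearly silent in WT_to_WT and clearly expressed in St2KO_to_St2KO. It lies on the minus strand at chr11:109573331-109611967. Its level was 0.172, 0.0966 and 0.0796 CPM in WT_to_WT and 25.8, 25.2 and 27.4 CPM in St2KO_to_St2KO. These are 4 reads against 1011, a ratio of 226 (exact 95% interval 88 to 831, counting error only). The log2 fold change was 7.69 (SE 0.52, edgeR adjusted p = 0.000222), and the call held under all 24 alternatives of processing and left-out libraries. In the mixed chimeras Wipi1 read 0.0862, 0.686 and 0.26 CPM in St2KO_to_WT and 27, 30.2 and 21.5 CPM in WT_to_St2KO. Its level thus divided the 12 libraries by host: all 6 WT hosts were below 1 CPM and all 6 St2-/- hosts above 20 CPM. Full loss differed from marrow-only loss by 6.20 on the log2 scale (SE 0.46, edgeR adjusted p = 0.000555) and from host-only loss by -0.00 (SE 0.33, edgeR adjusted p = 0.999). Its close relatives did not share this pattern of size. Wipi2 read 102 to 106 CPM in WT_to_WT and 111 to 118 CPM in St2KO_to_St2KO, and the log2 fold changes of Wdr45 and Wdr45b were 0.33 and -0.22. Of the 32 tested autophagy genes, 1 was called higher (Wipi1). At an unadjusted p under 0.05, 1 was lower and 3 higher, beside 7.28% lower and 6.45% higher over all genes. The higher ones were Wipi1 and the initiating kinases Ulk1 and Ulk2. The list's median log2 fold change was -0.02, beside -0.01 over all genes.

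Tcfl5, a helix-loop-helix transcription factor known mainly from the testis, went the other way. It lies on the minus strand at chr2:180621956-180642708. Its level was 16.1, 25.2 and 8.12 CPM in WT_to_WT and 0.0764, 0 and 0.0773 CPM in St2KO_to_St2KO, or 550 reads against 2. It was 308 times as high in WT_to_WT (exact 95% interval 84.8 to 2546, counting error only), and the log2 fold change was -8.05 (SE 0.92, edgeR adjusted p = 0.0121). In the mixed chimeras Tcfl5 read 6.98, 3.69 and 4.08 CPM in St2KO_to_WT and 0, 0.261 and 0.439 CPM in WT_to_St2KO, again divided by host. Full loss differed from marrow-only loss by -6.31 (SE 0.91, edgeR adjusted p = 0.0492). Tcfl5 shares 234 bases with Col9a3 on the opposite strand, and the strand setting of the counting is not given.

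Mfap1a encodes a component of the spliceosome. It lies at chr2:121491911-121506665 on the minus strand. Its level was 26.8, 26.3 and 23.9 CPM in WT_to_WT and 4.81, 4.75 and 4.48 CPM in St2KO_to_St2KO, so that both groups were tight and far apart (log2 fold change -2.45, SE 0.26, edgeR adjusted p = 0.0108). Its near-identical copy Mfap1b, next to it on chromosome 2, read 3.69, 3.86 and 2.87 CPM against 1.3, 0.95 and 1.01 CPM (log2 fold change -1.67, SE 0.33, edgeR adjusted p = 0.148). Reads that fit both copies equally well were not assigned, which makes the values of each uncertain. In the mixed chimeras Mfap1a read 21.2 to 22.8 CPM in St2KO_to_WT and 3.98 to 9.04 CPM in WT_to_St2KO.

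Arl2bp, on the plus strand at chr8:94666600-94674425, encodes a partner of the small GTPases ARL2 and ARL3 at mitochondria and cilia. Its level was 141, 170 and 178 CPM in WT_to_WT and 52, 54 and 38.3 CPM in St2KO_to_St2KO, and it fell by 1.76 on the log2 scale (SE 0.20, edgeR adjusted p = 0.0121). The mixed chimeras read 141, 141 and 175 CPM in St2KO_to_WT and 54.2, 83.3 and 54.8 CPM in WT_to_St2KO. ARL2 and ARL3 themselves were not lower: Arl2 and Arl3 had log2 fold changes of 0.38 and 0.44. The calls of Mfap1a, Tcfl5 and Arl2bp depended on single libraries. Without any 1 of the 3 St2KO_to_St2KO libraries, or without WT_to_WT replicate 2, Wipi1 alone remained called; without WT_to_WT replicate 3 the call of Arl2bp was lost, and without WT_to_WT replicate 1 all 4 calls held. Their fold changes hardly moved, with log2 ranges over all libraries left out in turn of -2.50 to -2.41 for Mfap1a, -8.38 to -7.56 for Tcfl5 and -1.86 to -1.63 for Arl2bp.

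**Figure D2:**
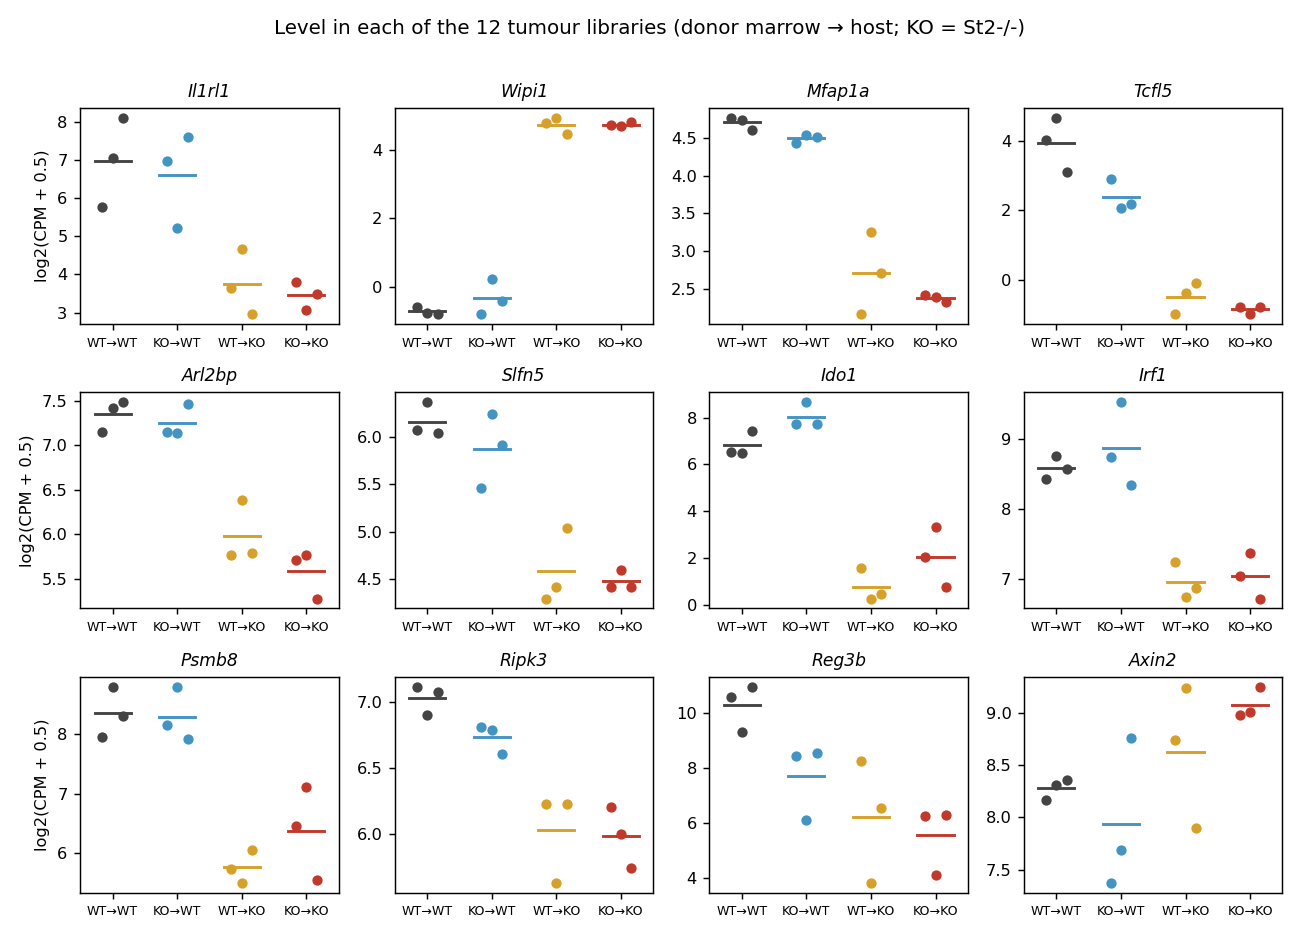
Level of 12 genes in each of the 12 tumour libraries, as log2(CPM + 0.5); each point is 1 library, bars are group means, and KO stands for St2-/- in marrow → host. Wipi1, Tcfl5, Mfap1a and Arl2bp separate WT hosts from St2-/- hosts without overlap, and Slfn5, Ido1, Irf1 and Psmb8 lie lower in St2KO_to_St2KO (right) than in WT_to_WT (left).

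Genes next in rank, at least 2-fold apart in the fit and with no overlap between the groups, numbered 360 higher and 242 lower; predicted genes, clones, annotated pseudogenes and sex-linked genes are left out of these counts. None but the 4 passed the edgeR threshold, and the 12 with the smallest p in each direction are named here. On the higher side, Wipi1 was followed by Smco3, Olfr76, Sfi1, Scai, Chd6, Foxn3, Ppp1r9a, Pcdhb13, Klhl30, Galnt9 and Gpr126, with edgeR adjusted p from 0.0737 to 0.18. Sfi1, a centriole protein, read 18.5, 37.5 and 32.3 CPM in WT_to_WT and 94.2, 71.1 and 90.5 CPM in St2KO_to_St2KO (log2 fold change 1.53, SE 0.26). Chd6, a chromatin remodeller, read 51.5, 49.3 and 54.4 CPM against 120, 83.8 and 115 CPM (log2 fold change 1.04, SE 0.19). Foxn3, a forkhead repressor, read 1.97, 3.09 and 1.91 CPM against 7.49, 5.22 and 8.74 CPM (log2 fold change 1.62, SE 0.31). Several of these genes are barely expressed. Olfr76, an odorant receptor, had 0 reads in the 3 WT_to_WT libraries together and 48 in St2KO_to_St2KO, at least 14.3-fold higher against a floor of 3 reads over the group. Smco3 had 6 reads against 72, and all of it, 5526 bases, lies within BC049715 on the opposite strand (log2 fold change 1.04), so reads of both cannot be told apart without the strand setting.

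Pcdhb13, a clustered protocadherin with close copies, lay above both mixed chimeras too, a gene singled out after its values were seen. It read 0.515, 0.87 and 1.19 CPM in WT_to_WT and 4.58, 4.67 and 2.71 CPM in St2KO_to_St2KO, beside 0.343 to 1.12 CPM in St2KO_to_WT and 0.879 to 1.13 CPM in WT_to_St2KO. Its difference between full and host-only loss was 1.97 on the log2 scale (SE 0.48, edgeR adjusted p = 0.995), which did not pass. Across all genes the contrast of full against host-only loss yielded no edgeR call (0 genes, 0%), and 610 genes (4.05%) reached an unadjusted p under 0.05; no other tool was run on it. Full against marrow-only loss gave 9 calls (0.0598%). These contrasts share the 3 St2KO_to_St2KO libraries with the main comparison, so their values stand beside it and add no independent libraries.

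On the lower side, Mfap1a, Tcfl5 and Arl2bp were followed by Slfn5, Ido1, Htatip2, Ly6c1, Il18bp, Ripk3, Wars, Slfn2 and Gmppb, with edgeR adjusted p from 0.0538 to 0.123. Many of these are known interferon-induced genes. Slfn5, of the Schlafen family of growth regulators, read 66.8, 82.1 and 65.2 CPM in WT_to_WT and 20.8, 23.7 and 20.9 CPM in St2KO_to_St2KO (log2 fold change -1.71, SE 0.24, edgeR adjusted p = 0.0538). Ido1, the first enzyme of tryptophan breakdown to kynurenine, read 92.6, 88.2 and 170 CPM against 3.59, 9.42 and 1.16 CPM (log2 fold change -4.63, SE 0.67, edgeR adjusted p = 0.0647). Wars, the tryptophan tRNA ligase, read 438, 463 and 449 CPM against 195, 200 and 189 CPM (log2 fold change -1.21, SE 0.20, edgeR adjusted p = 0.11). Of the 17 tested genes of tryptophan and NAD metabolism, Ido1 included, 4 were lower and 0 higher at an unadjusted p under 0.05. The shares over all genes were 7.28% lower and 6.45% higher. Il18bp, the secreted decoy of interleukin-18, read 35, 63.4 and 53.9 CPM against 13.6, 18 and 9.59 CPM (log2 fold change -1.89, SE 0.30, edgeR adjusted p = 0.0921). Lack of overlap between the groups was a condition for the 12 lower genes, so it is no separate result for any of them. Besides Slfn5, Ido1, Wars and Il18bp, the list holds Htatip2, a tumour suppressor of the dehydrogenase family. Htatip2 read 95.6, 95.5 and 79.3 CPM against 37.1, 46.8 and 30.2 CPM. Gmppb, which makes GDP-mannose for glycosylation, read 88.6, 72.4 and 66.6 CPM against 37.5, 38.1 and 36.6 CPM. Ly6c1, a surface protein of endothelium and some leukocytes, read 104, 120 and 149 CPM against 28.2, 34.7 and 14.8 CPM. The endothelial list that holds Ly6c1 had 1 lower and 1 higher of 20 members at an unadjusted p under 0.05 and a median log2 fold change of 0.04.

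Interferon-gamma targets had the lowest median log2 fold change of the 55 gene lists, which were chosen with earlier results of these data known. Of the 43 tested genes of the interferon-gamma response list, 38 were lower at an edgeR unadjusted p under 0.05 and 0 were higher, beside 7.28% lower over all genes. All 43 had a negative log2 fold change, and the median was -1.91 beside -0.01 over all genes. In 36 of them all St2KO_to_St2KO libraries lay below all WT_to_WT libraries, beside 11.6% over all genes. With an adjusted p, edgeR called 0 of the 43, DESeq2 called 32 lower and limma-voom 39 lower. The shares called lower over all genes were 0.0199%, 1.75% and 6.53%. Their summed level was 4481 to 7982 CPM in WT_to_WT and 1346 to 2528 CPM in St2KO_to_St2KO. The mixed chimeras held 5818 to 11851 CPM in St2KO_to_WT and 1124 to 1707 CPM in WT_to_St2KO, so the sums divided by host. The count of 38 was 37 to 42 under every alternative run, and 40 without WT_to_WT replicate 1. Among the 100 genes with the smallest p over all genes, 67 were lower, and 23 of the 100 belong to the lists of interferon-gamma, type I interferon or MHC class I genes, which together hold 95 different tested genes.

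Interferon signalling is known to act through short promoter elements. Dimers of STAT proteins bind GAS elements, searched here as TTCNNNGAA, and complexes of STAT and IRF proteins bind ISRE elements, searched as GAAA, any 2 bases and GAAA again (TTTC, 2 bases and TTTC on the other strand), on both strands of the 250 bases before each RefSeq start. Of 32851 such windows in the RefSeq table (GRCm38.p6), 7.02% held the first and 2.98% the second motif. A window was found for 24 of the 43 interferon-gamma genes, which is too few, so a comparison of shares between the list and other genes is void. Sequences are shown for 6 genes picked from list members with a match, to span the roles below, a regulator, GTPases and antigen presentation. Their having a match follows from that choice and does not show how common matches are. The last 150 bases before the start are given, with the matches in capitals (5′ to 3′, plus strand). They lie at chr11:53769864-53770013 (Irf1), chr3:142620513-142620662 (Gbp2), chr11:58214827-58214976 (Irgm2), chr11:58199406-58199555 (Igtp), chr17:34198045-34198194 (Psmb8) and chr2:122147537-122147686 (B2m).
Irf1: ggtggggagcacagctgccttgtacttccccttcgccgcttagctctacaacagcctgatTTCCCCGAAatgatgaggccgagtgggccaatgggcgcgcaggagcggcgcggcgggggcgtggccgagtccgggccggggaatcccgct
Gbp2: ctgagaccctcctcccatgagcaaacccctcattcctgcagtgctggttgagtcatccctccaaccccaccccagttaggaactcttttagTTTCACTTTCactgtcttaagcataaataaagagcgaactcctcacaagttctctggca
Irgm2: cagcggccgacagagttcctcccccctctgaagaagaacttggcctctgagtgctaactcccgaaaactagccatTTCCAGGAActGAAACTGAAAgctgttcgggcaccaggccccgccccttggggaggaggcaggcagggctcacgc
Igtp: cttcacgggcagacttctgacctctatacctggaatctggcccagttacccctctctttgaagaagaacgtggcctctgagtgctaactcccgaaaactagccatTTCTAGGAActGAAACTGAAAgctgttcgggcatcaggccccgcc
Psmb8: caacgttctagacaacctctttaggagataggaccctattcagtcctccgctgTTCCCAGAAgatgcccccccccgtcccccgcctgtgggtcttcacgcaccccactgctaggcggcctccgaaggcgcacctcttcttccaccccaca
B2m: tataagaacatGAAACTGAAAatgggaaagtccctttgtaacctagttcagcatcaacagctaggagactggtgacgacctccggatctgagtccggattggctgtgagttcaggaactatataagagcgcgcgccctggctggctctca
Irf1 and Psmb8 each show 1 GAS-like match, Gbp2 and B2m 1 ISRE-like match. Igtp and Irgm2 carry a GAS-like match followed after 2 bases by the same ISRE-like match, GAAACTGAAA, which in Igtp lies 34 to 25 bases before the start. A match is a description of the letters in the window and was not tested for binding.

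The ligand and its signalling chain differed in degree. Ifng, which encodes interferon-gamma, was close to the limit of detection, with 6, 11 and 24 reads in WT_to_WT and 1, 2 and 1 in St2KO_to_St2KO. It was 11.5 times as high in WT_to_WT (exact 95% interval 4.15 to 44.1, counting error only), and its log2 fold change was -3.37 (SE 0.94, edgeR adjusted p = 0.215). Of the receptor subunits, Ifngr1 read 356, 187 and 221 CPM in WT_to_WT and 167, 124 and 132 CPM in St2KO_to_St2KO. Ifngr2 read 285, 269 and 266 CPM against 267, 313 and 248 CPM, with overlap. The kinases Jak1 and Jak2 had log2 fold changes of 0.10 and -0.19. Transcription factors downstream, Irf1 and Stat2, were lower in every St2KO_to_St2KO library than in any WT_to_WT library. Irf1 read 344, 430 and 380 CPM against 131, 164 and 105 CPM (log2 fold change -1.53, SE 0.29, edgeR adjusted p = 0.136). Stat2, used mainly by type I interferons, read 160, 190 and 190 CPM against 90.1, 96.6 and 74.8 CPM. Socs1, the feedback inhibitor of this pathway, read 21.3, 34.2 and 38.5 CPM against 6.27, 15.4 and 7.65 CPM. Over the 21 tested genes of interferon receptors and signalling, 9 were lower and 1, the type I receptor gene Ifnar1, was higher at an unadjusted p under 0.05. The share lower over all genes was 7.28%. The list's median log2 fold change was -0.30. The count of lower genes was 5 without St2KO_to_St2KO replicate 3, and the median was -0.15 with library sizes alone.

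Guanylate-binding proteins and immunity-related GTPases, which attack the vacuoles of intracellular microbes, made up much of the list. Gbp2 read 99.2, 204 and 171 CPM in WT_to_WT and 21.1, 49.5 and 11.9 CPM in St2KO_to_St2KO (log2 fold change -2.52, SE 0.50, edgeR adjusted p = 0.148). Gbp5 read 22.4, 88.5 and 70.4 CPM against 9.25, 12.4 and 5.41 CPM (log2 fold change -2.74, SE 0.54, edgeR adjusted p = 0.148). Igtp read 124, 445 and 303 CPM against 31.6, 95.6 and 17.2 CPM, and Irgm2 116, 201 and 230 CPM against 46.3, 72.4 and 26.9 CPM. In all 4 genes the groups did not overlap, WT_to_WT replicate 1 was the lowest of its group and St2KO_to_St2KO replicate 2 the highest of its group. Genes of these families resemble each other, and reads that fit several of them equally were not assigned. The chemokines Cxcl9 and Cxcl10, which draw T cells that carry CXCR3, read 45.1, 123 and 115 CPM against 6.57, 40 and 2.47 CPM, and 16.1, 54.2 and 46.1 CPM against 5.65, 17.1 and 2.47 CPM. Cxcl10 overlapped by 1 library. Cd274, which encodes the checkpoint ligand PD-L1, read 27.1, 57.2 and 52.1 CPM against 20.6, 17 and 10.6 CPM (log2 fold change -1.50, SE 0.34, edgeR adjusted p = 0.18). Of the 19 tested immune checkpoint genes only Cd274 and Lgals9 had an unadjusted p under 0.05, beside 13.7% of all genes.

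**Figure D3:**
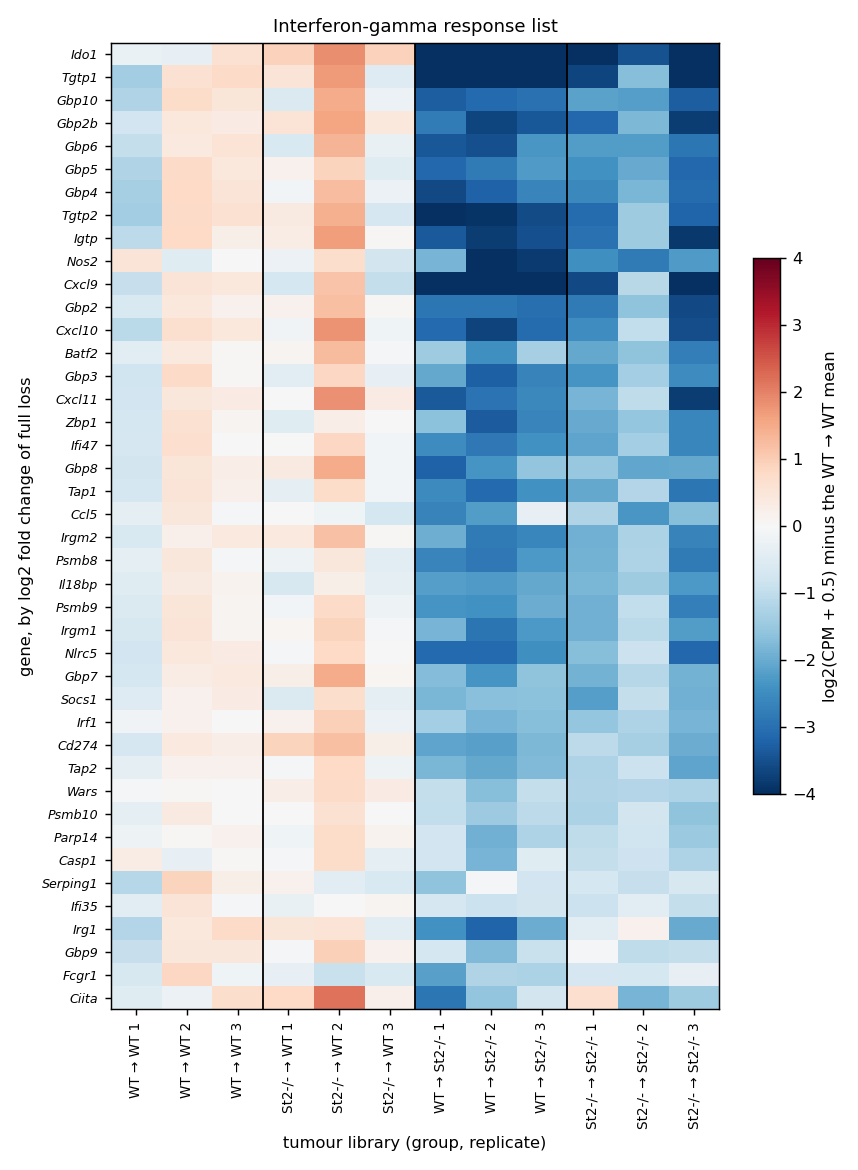
Each row is 1 of 42 of the 43 tested genes of the interferon-gamma response list and each column 1 of the 12 libraries; colour is log2(CPM + 0.5) minus the mean of the 3 WT_to_WT libraries, limited to ±4. The 3 St2KO_to_St2KO columns (right) are blue in nearly every row, and Ciita in the last row is red in replicate 1.

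MHC class I genes, which load and show peptides to CD8 T cells, were lower across the whole list. All 20 tested members were lower at an edgeR unadjusted p under 0.05, beside 7.28% over all genes. Of these, 19 lay below all WT_to_WT libraries, beside 11.6% over all genes, and the median log2 fold change was -1.21. At an adjusted p, edgeR called 0 of them, DESeq2 16 and limma-voom 20, beside 0.0199%, 1.75% and 6.53% lower over all genes. The unadjusted count was 18 to 20 under the alternatives. B2m, the invariant light chain, read 1373, 2549 and 1908 CPM in WT_to_WT and 651, 864 and 383 CPM in St2KO_to_St2KO (log2 fold change -1.62, SE 0.36, edgeR adjusted p = 0.178). The immunoproteasome gene Psmb8 read 248, 449 and 318 CPM against 87.4, 138 and 46 CPM (log2 fold change -1.90, SE 0.39, edgeR adjusted p = 0.148). The peptide transporter Tap1 read 198, 463 and 369 CPM against 78.1, 144 and 43.3 CPM. Among the heavy chains, H2-D1 read 1037, 1574 and 1174 CPM against 477, 757 and 369 CPM, without overlap. H2-K1 read 157, 406 and 248 CPM against 106, 167 and 74.9 CPM, and overlapped. Nlrc5, the transactivator of this gene set, read 54.9, 126 and 117 CPM against 28.4, 51.4 and 10.1 CPM. Heavy chain genes are near copies of each other, so their single values are less certain than those of B2m, Tap1 and Psmb8.

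MHC class II genes, expressed by antigen-presenting cells and induced by interferon-gamma in epithelium, differed less. Of 13 tested members, 1 (Ctss, a lysosomal protease) was lower at an unadjusted p under 0.05, beside 7.28% over all genes. Below all WT_to_WT libraries lay 5, beside 11.6% over all genes, and the median log2 fold change was -0.74. The count at an unadjusted p under 0.05 ranged from 0 to 9 over the alternatives, and the median was -1.12 without St2KO_to_St2KO replicate 1. Cd74, the invariant chain, read 1192, 1443 and 1631 CPM in WT_to_WT and 930, 565 and 456 CPM in St2KO_to_St2KO (log2 fold change -1.13, SE 0.51, edgeR adjusted p = 0.366). Ciita, the class II transactivator, read 15.5, 18.5 and 36.1 CPM against 34.8, 5.62 and 7.89 CPM, with St2KO_to_St2KO replicate 1 near the top of the WT_to_WT range. That library also held the highest summed B cell markers, 917 CPM beside 68.4 to 295 CPM in the other 5; the part of B cells in the class II values was not tested.

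Genes known from type I interferon and antiviral responses were lower by about 2-fold. Of 38 tested, 26 were lower and 0 higher at an edgeR unadjusted p under 0.05, beside 7.28% lower over all genes. All 38 were negative and the median log2 fold change was -1.13. With an adjusted p, edgeR called 0, DESeq2 15 and limma-voom 26, beside 0.0199%, 1.75% and 6.53% lower over all genes. The unadjusted count was 19 to 37 over the alternatives, with 23 when WT_to_WT replicate 1 was left out. Irf7 read 284, 419 and 241 CPM in WT_to_WT and 130, 147 and 104 CPM in St2KO_to_St2KO. Isg15, a ubiquitin-like protein, read 83, 143 and 91.1 CPM against 28.9, 46.5 and 25.4 CPM (log2 fold change -1.65, SE 0.47, edgeR adjusted p = 0.215). Ifit1, an RNA sensor, read 87.8, 85 and 65.3 CPM against 28, 48.1 and 29.4 CPM. Trim30a and Herc6 had log2 fold changes of -1.36 (SE 0.26, edgeR adjusted p = 0.136) and -1.34 (SE 0.30, edgeR adjusted p = 0.178). Interferon genes of both types share many targets, and the lists cannot separate both inputs.

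Lytic cell death and inflammasome genes were partly lower. Of 15 tested, 6 were lower and 0 higher at an unadjusted p under 0.05, beside 7.28% lower over all genes. The median log2 fold change was -0.76. Without WT_to_WT replicate 1 the median was -0.39 and 5 were lower. The necroptosis kinase gene Ripk3 read 138, 119 and 135 CPM in WT_to_WT and 73.1, 63.4 and 53 CPM in St2KO_to_St2KO (log2 fold change -1.05, SE 0.18, edgeR adjusted p = 0.11). Its substrate Mlkl read 74.5, 94.3 and 83.7 CPM against 32.8, 50.2 and 28.5 CPM (log2 fold change -1.18, SE 0.27, edgeR adjusted p = 0.18). Zbp1, the nucleic acid sensor upstream of RIPK3, read 131, 328 and 233 CPM against 52.4, 73.8 and 35 CPM (log2 fold change -2.10, SE 0.47, edgeR adjusted p = 0.178). The inflammatory caspase gene Casp4 read 79.1, 75 and 73.3 CPM against 34, 33.9 and 32.9 CPM. Zbp1, Ripk3 and Mlkl had groups without overlap, but they are named for being among the smallest p of their list. Of its 15 tested members, 6 lay below all WT_to_WT libraries, beside 11.6% over all genes. Zbp1 also belongs to the interferon-gamma list. Of 7 tested Schlafen genes, 4 were lower, including Slfn4, a myeloid member, at 661, 408 and 545 CPM against 134, 212 and 150 CPM. Of 17 tested complement genes, 5 were lower at an unadjusted p under 0.05 and 2 to 8 over the alternatives; 2 were left without WT_to_WT replicate 2 or without St2KO_to_St2KO replicate 2. Cfb, the alternative pathway protease, read 337, 389 and 267 CPM against 120, 159 and 119 CPM.

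Antimicrobial genes of the gut epithelium showed large differences with wide errors. Of 21 tested Paneth-like and antimicrobial genes, 9 were lower and 0 higher at an edgeR unadjusted p under 0.05, beside 7.28% lower over all genes. The list's median log2 fold change was -1.28. The count was 5 without St2KO_to_St2KO replicate 2 or replicate 3. Without WT_to_WT replicate 1 the count was 6 and the median -0.63, which was also the median with limma-voom. The C-type lectin gene Reg3b read 1523, 632 and 2008 CPM in WT_to_WT and 75.8, 16.9 and 78.2 CPM in St2KO_to_St2KO (log2 fold change -4.61, SE 1.11, edgeR adjusted p = 0.192). Reg3g, its neighbour and relative that kills Gram-positive bacteria, read 822, 384 and 1256 CPM against 88.5, 11.1 and 90.1 CPM (log2 fold change -3.70, SE 1.06, edgeR adjusted p = 0.217). Nos2, the inducible nitric oxide synthase, read 502, 249 and 346 CPM against 64.3, 49.3 and 72.9 CPM. Duoxa2, needed for epithelial hydrogen peroxide, read 244, 81.9 and 128 CPM against 50.1, 42.3 and 42.6 CPM. None of these 4 genes overlapped between the groups. In the mixed chimeras Reg3b read 349, 68.3 and 377 CPM in St2KO_to_WT and 304, 13.6 and 92.7 CPM in WT_to_St2KO. The Paneth cell lysozyme gene Lyz1 was not lower. Lyz1 read 46, 127 and 68.9 CPM in WT_to_WT and 83.2, 71.7 and 432 CPM in St2KO_to_St2KO. The groups overlapped, and only replicate 3 of St2KO_to_St2KO lay above the WT_to_WT range. Retnlb, a goblet cell peptide made under type 2 cytokines, read 50.1, 8.79 and 42.7 CPM against 10.3, 6.57 and 3.32 CPM, with overlap. In both mixed chimeras Retnlb read 26.3 to 52.2 CPM. Its log2 difference between full and host-only loss was -2.67 (SE 0.59), with an edgeR adjusted p of 0.995.

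The plot of gene lists sets all lists with at least 10 tested members against the background of all genes.

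**Figure D4:**
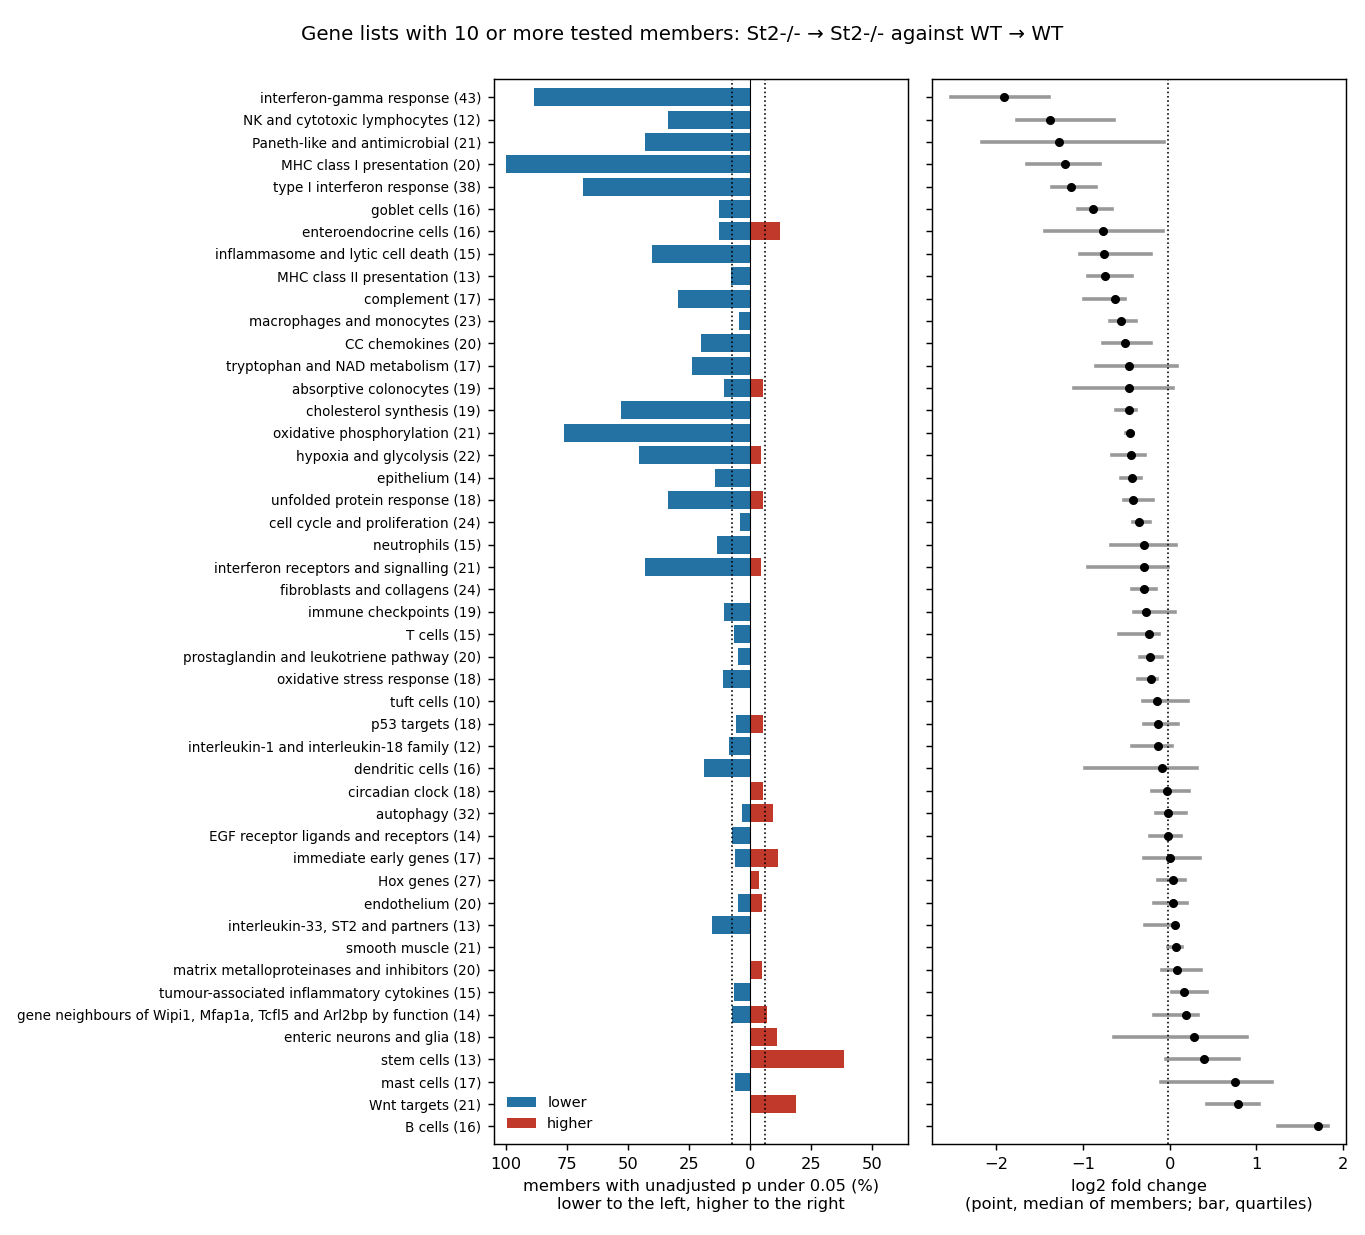
Left, share of each list's tested members (number in brackets) that were lower (blue) or higher (red) at an edgeR unadjusted p under 0.05; dotted lines mark the shares over all genes, 7.28% and 6.45%. Right, median and quartiles of the members' log2 fold changes (St2KO_to_St2KO minus WT_to_WT); the interferon-gamma list lies at the top at -1.91 and B cell markers at the bottom at 1.71, where 0 members had an unadjusted p under 0.05.

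Several housekeeping and metabolic lists were lower by small amounts. Of 21 tested genes of oxidative phosphorylation, the respiratory chain of mitochondria, 16 were lower and 0 higher at an edgeR unadjusted p under 0.05. The shares over all genes were 7.28% lower and 6.45% higher. All 21 members of the list were negative and the median log2 fold change was -0.45. Cox5a, a subunit of complex IV, read 424, 439 and 407 CPM in WT_to_WT and 232, 291 and 248 CPM in St2KO_to_St2KO (log2 fold change -0.72, SE 0.17, edgeR adjusted p = 0.185). Ndufb8, of complex I, read 225, 216 and 206 CPM against 137, 150 and 139 CPM (log2 fold change -0.60, SE 0.14, edgeR adjusted p = 0.185). Both groups were tight in these genes, and the differences were under 2-fold. The unadjusted count was 9 and 8 without St2KO_to_St2KO replicate 1 or 3, 11 without WT_to_WT replicate 1, and 10, with a median of -0.30, with library sizes alone. Of 19 tested genes of cholesterol synthesis, 10 were lower and 0 higher, with a median of -0.47; the count was 3 to 13 as libraries were left out, lowest without St2KO_to_St2KO replicate 3. Sqle, which epoxidises squalene, read 195, 166 and 163 CPM against 118, 111 and 87.7 CPM (log2 fold change -0.72, SE 0.16, edgeR adjusted p = 0.178). Of 22 tested genes of hypoxia and glycolysis, 10 were lower and 1 higher, with a median of -0.45, and the count of lower genes was 3 to 12 as libraries were left out. Hk2, a hexokinase, read 888, 384 and 604 CPM against 201, 182 and 201 CPM (log2 fold change -1.68, SE 0.52, edgeR adjusted p = 0.233). In the unfolded protein response list 6 of 18 were lower and 1 higher, and 1 to 10 were lower over the alternatives, lowest without St2KO_to_St2KO replicate 3 and with library sizes alone. Hspa5, the main chaperone of the endoplasmic reticulum, read 1537, 1141 and 1318 CPM against 906, 935 and 907 CPM.

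Fold changes also moved with transcript length. From the quintile of genes with the shortest transcripts to that with the longest, the median log2 fold change went from -0.14 to 0.17, the share with an unadjusted p under 0.05 and lower from 11.7% to 2.65%, and the share higher from 2.18% to 15.5%. Against the WT_to_WT mean, the longest quintile lay above the shortest by 0.43 and 0.39 (median log2) in St2KO_to_St2KO replicates 1 and 3 and by 0.06 in replicate 2, and WT_to_WT replicate 2 lay the other way at -0.28. With a smooth length trend removed from each library, an alternative added after the values were seen, 1015 lower (6.8%) and 807 higher genes (5.41%) remained at an unadjusted p under 0.05. In that fit 38 interferon-gamma genes, 27 type I interferon genes and 19 MHC class I genes were lower. Oxidative phosphorylation, whose genes have a median transcript length of 1832 bases beside 3281 over all tested genes, went from 16 to 10, hypoxia and glycolysis from 10 to 6, and Wnt targets from 4 to 7 higher genes. The medians moved less, from -0.45 to -0.37 for oxidative phosphorylation and from -0.45 to -0.39 for hypoxia and glycolysis, and 1 gene of each of these lists had no length and was not in that fit. Scaling by library size without TMM moved the median of all genes to 0.13 and the split to 541 lower (3.59%) and 1803 higher (12%).

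**Figure D5:**
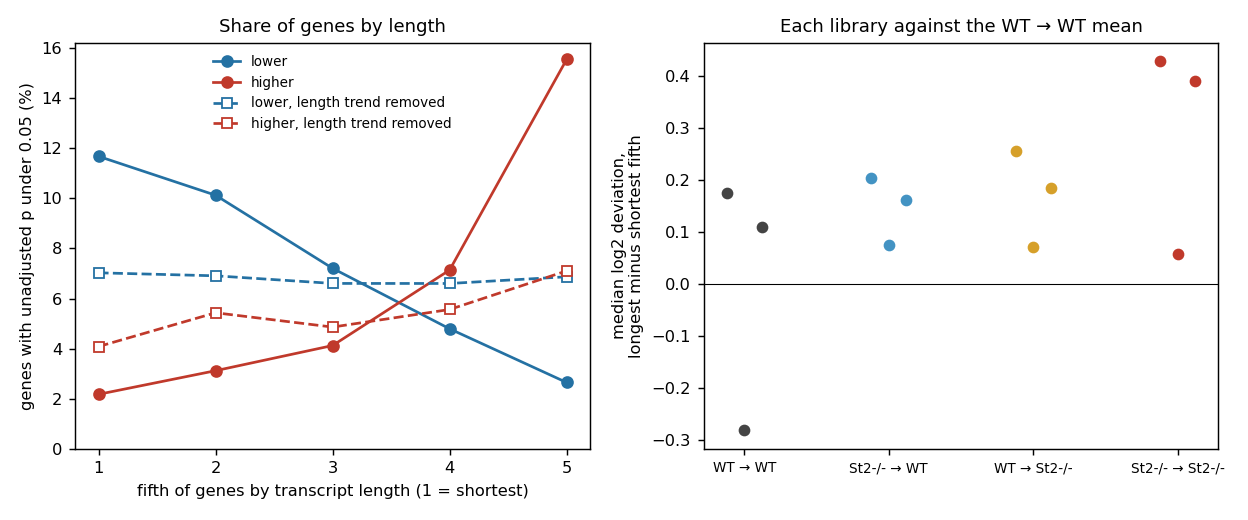
Left, share of genes with an edgeR unadjusted p under 0.05 in each quintile of transcript length, as deposited (filled) and with the length trend removed (open). Right, for each library the median log2 deviation from the WT_to_WT mean in the longest minus the shortest quintile, at 0.43, 0.06 and 0.39 in St2KO_to_St2KO and 0.17, -0.28 and 0.11 in WT_to_WT.

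Wnt target genes went the opposite way to most lists. The Wnt pathway drives crypt stem cells and, when it is constantly on, colon tumours. Of 21 tested targets, 19 had a positive log2 fold change, with a median of 0.79. Above all WT_to_WT libraries lay 12, beside 12.2% over all genes. At an edgeR unadjusted p under 0.05, 4 targets were higher and 0 lower, beside 6.45% higher over all genes. Summed, they were 2086 to 3465 CPM in WT_to_WT and 4232 to 4914 CPM in St2KO_to_St2KO. Axin2, the feedback scaffold of the pathway, read 286, 317 and 327 CPM against 504, 513 and 608 CPM (log2 fold change 0.81, SE 0.37, edgeR adjusted p = 0.371). Rnf43, a ligase that removes Wnt receptors, read 189, 256 and 248 CPM against 330, 381 and 423 CPM (log2 fold change 0.71, SE 0.30, edgeR adjusted p = 0.336). Wif1, a secreted Wnt inhibitor, read 110, 293 and 355 CPM against 899, 463 and 716 CPM. Prox1, a homeobox gene, read 9.19, 28.5 and 30.1 CPM against 90.6, 44.1 and 94.6 CPM. None of these 4 overlapped between groups. The stem cell receptor gene Lgr5 read 3.26, 6.47 and 15.7 CPM against 56.8, 15.4 and 37.2 CPM and overlapped. The unadjusted count was 2 without St2KO_to_St2KO replicate 3, 3 without WT_to_WT replicate 1 and 12 when only the 6 libraries were fitted. In the stem cell list, which shares Lgr5, Rnf43 and Axin2, 5 of 13 were higher and 0 lower, and 2 were higher without St2KO_to_St2KO replicate 3 or WT_to_WT replicate 1. Olfm4, another crypt stem cell gene, read 8.07, 0.58 and 4.54 CPM against 1.15, 0.396 and 0.541 CPM. Proliferation genes did not go with the Wnt targets: all 24 tested cell cycle genes were negative, with a median of -0.35. Below all WT_to_WT libraries lay 11 of them, beside 11.6% over all genes. At an edgeR unadjusted p under 0.05, 1 was lower, beside 7.28% over all genes. Mki67 read 256, 271 and 214 CPM against 203, 179 and 182 CPM.

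The goblet cell and absorptive colonocyte lists followed WT_to_WT replicate 1. Of 16 goblet cell genes, 15 were negative with a median of -0.88, and without that library the median was 0.01. Muc2, the main mucin, read 5594, 532 and 2314 CPM in WT_to_WT and 2972, 841 and 1001 CPM in St2KO_to_St2KO. For 19 genes of absorptive colonocytes the median was -0.47 with all libraries and 0.23 without WT_to_WT replicate 1, and it was -0.91 without WT_to_WT replicate 2. The general epithelial list was negative in all 14 members with a median of -0.44. Of these members 2 had an edgeR unadjusted p under 0.05, beside 7.28% lower over all genes. Without WT_to_WT replicate 1 the median was -0.27 and 0 had such a p, and with library sizes alone the median was -0.28. The list's summed level was 13586 to 17474 CPM against 10125 to 12745 CPM. The keratin gene Krt8 read 3396, 2945 and 2414 CPM against 1730, 2364 and 1818 CPM.

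Among markers of blood-derived cells, those of cytotoxic lymphocytes were lowest. Of 12 tested NK and cytotoxic genes, 4 were lower and 0 higher at an edgeR unadjusted p under 0.05, beside 7.28% lower over all genes. Ifng is among the lower genes and also belongs to the list of interferon receptors and signalling. The list's median log2 fold change was -1.38, with summed levels of 52.9 to 67.8 CPM in WT_to_WT and 29.9 to 40.4 CPM in St2KO_to_St2KO. Gzmb, the killer protease granzyme B, read 6.87, 12 and 10.4 CPM against 2.22, 3.8 and 2.94 CPM. Cd8a, the co-receptor of killer T cells, read 7.21, 14.7 and 7.32 CPM against 1.45, 6.09 and 0.309 CPM. The pan-T-cell gene Cd3e, in contrast, read 4.98, 7.83 and 5.41 CPM against 6.19, 3.56 and 4.72 CPM, with overlap, and 1 of 15 T cell genes was lower (0 to 2 with libraries left out). Their part in the interferon-gamma values above was not tested.

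Macrophage and monocyte genes were negative in 22 of 23 members with a median of -0.57. But only 1, Fcgr4, was lower at an edgeR unadjusted p under 0.05, beside 7.28% lower over all genes. Without WT_to_WT replicate 1 the count was 8. The median was -0.15 without WT_to_WT replicate 2 and -0.34 with limma-voom. Fcgr4, an activating receptor for IgG, read 16.1, 33.7 and 22.7 CPM against 6.88, 11.2 and 8.35 CPM. Of 15 neutrophil genes 2 were lower at an edgeR unadjusted p under 0.05 (0 without St2KO_to_St2KO replicate 3), beside the same 7.28%. Among them was S100a8, a subunit of calprotectin, at 178, 66.7 and 183 CPM against 16.7, 37.8 and 12.6 CPM. In that list 10 members were negative and 5 positive. Its median was -0.30, and 0.06 without WT_to_WT replicate 3. Of 16 dendritic cell genes 3 were lower at an edgeR unadjusted p under 0.05, beside 7.28% lower over all genes. They include Clec9a of cross-presenting cells, at 4.72, 4.15 and 5.81 CPM against 2.22, 1.82 and 1.78 CPM. The dendritic list as a whole was split, with 8 members negative and 8 positive and a median of -0.08. Its summed level was 1223 to 1631 CPM in WT_to_WT and 1449 to 1559 CPM in St2KO_to_St2KO. Mast cell genes, from a cell type that normally carries ST2, were mostly positive, 12 of 17 with a median of 0.76. Of them, 8 lay above all WT_to_WT libraries, beside 12.2% over all genes. The mucosal mast cell protease gene Mcpt1 read 82.1, 39.7 and 64.5 CPM against 102, 126 and 87.1 CPM (log2 fold change 0.76, SE 0.82), and Il1rl1 was the only mast cell list member with an unadjusted p under 0.05. The growth factor receptor gene Kit read 41.3, 28.1 and 26 CPM against 31.9, 26.5 and 30.4 CPM. B cell genes were positive in all 16 members with a median of 1.71 and 0 had an unadjusted p under 0.05; the libraries differed widely within groups.

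Stromal and other lists lay near the background. Of 21 smooth muscle genes and 24 fibroblast and collagen genes, 0 had an edgeR unadjusted p under 0.05, with medians of 0.08 and -0.29. DESeq2 and limma-voom called 0 in both, beside 3.14% and 11.4% over all genes. Hox genes (1 of 27), circadian clock genes (1 of 18), matrix metalloproteinases and their inhibitors (1 of 20), p53 targets (2 of 18) and prostaglandin pathway genes (1 of 20) also had few members at an unadjusted p under 0.05, beside 13.7% over all genes.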

How the data were processed

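RNA of whole AOM-induced colon tumours was sequenced in 12 libraries, 3 in each group of marrow and host genotype. The authors deposited raw read counts per gene, which rest on TopHat and Bowtie2 with the GRCm38 (mm10) build, per the submitters' processing notes. Counting tool, annotation and strand setting: not given in the sources used here. Each file's 5 summary entries that name no gene, 52.0% to 59.6% of the total in the 6 libraries compared, were left out. Multiply aligned reads, 40.0% to 48.9%, are among them, so close gene copies are undercounted.

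Counts were fitted in R 4.3.3 with edgeR 4.0.16: filterByExpr (minimum count 10) kept 15060 genes and removed 9002, TMM factors were used, and a robust quasi-likelihood fit held 1 coefficient for each of the 4 groups, so the spread came from all 12. Two-sided tests were used, and a call needs a Benjamini-Hochberg adjusted p under 0.05 over all genes. An unadjusted p under 0.05 is used only for counts. The labels call the libraries biological replicates, and p-values measure the spread between them. Depth was 10638001 to 12962496 gene counts, and intervals cover counting error only. On simulated counts with known answers (14876 genes, this comparison) 19% of simulated 2-fold changes and 67% of 4-fold changes were called, and 4 of 90 calls were false. Apart from the changed genes, all simulated libraries shared the same mean for each gene. The simulation held no outlying library and no length trend, both present in the measured libraries, so its shares need not hold for them.

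The members of this comparison and the 55 gene lists, of which 877 different genes were tested, were chosen with earlier results of these data known. Named are all called genes, up to 12 higher and 12 lower genes of smallest p, at least 2-fold apart and without overlap (no predicted genes, clones, pseudogenes or sex-linked genes), Il1rl1 with its 5 nearest tested genes on each side, Il33, and up to 4 members of smallest p of lists described; further list members were named after their values were seen. Coordinates and lengths are from GENCODE M21 and promoters from RefSeq (GRCm38.p6). Alternatives used DESeq2 1.42.0, limma-voom (limma 3.58.1), other filters, scalings and covariates, the replicate block and each library left out. A fit with library sizes alone and one without the length trend were added after the data were seen. Tables were made with Python 3.11.15. Some list members count in the list totals but are not reported here by name.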

Additional observations from a re-analysis of the deposited data

How the results depend on the processing

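The count of 4 called genes (3 lower, 1 higher) was 473 (264 lower, 209 higher) with DESeq2, 1722 (983 lower, 739 higher) with limma-voom and 8 (7 lower) when only the 6 libraries were fitted, and 5 lower genes were called without the filter. With libraries left out in turn, the calls ranged from 1 to 11, from 0 to 10 for lower genes and from 1 to 1 for higher genes. The replicate numbers did not pair the samples: deviations of libraries with the same number correlated at 0.086, 0.176 and -0.109, not every library correlated best with its own number, and the replicate block left 1 call, Wipi1, and 0 lower calls. The list counts at an unadjusted p under 0.05 varied as libraries were left out. These ranges were 37 to 40 for interferon-gamma, 19 to 29 for type I interferon, 18 to 20 for MHC class I, 8 to 18 for oxidative phosphorylation, 3 to 13 for cholesterol synthesis, 3 to 12 for hypoxia and glycolysis and 2 to 9 for higher Wnt targets. With library sizes alone, 10 oxidative phosphorylation, 5 cholesterol and 5 hypoxia and glycolysis genes were lower and 9 Wnt targets higher. With the length trend removed these were 10 for oxidative phosphorylation, 6 for hypoxia and glycolysis and 7 for Wnt targets. Wnt targets counted 9 with DESeq2, 12 with limma-voom and 12 with only the 6 libraries. The log2 fold change of Il33, 0.28, was -0.19 with limma-voom and ranged from -0.13 to 1.02 with libraries left out. The cause of these shifts was not tested. Genes with a handful of reads, such as Ifng and Olfr76, are limited by depth.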

Other observations

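Genes of the type 2 response, the branch that interleukin-33 is best known for, were thinly measured in these tumours. Of 16 genes of that list in the table, 7 passed the filter, and all 7 had a negative log2 fold change with a median of -0.54. Areg, an epidermal growth factor relative made by type 2 lymphoid cells and epithelium, read 39.5, 57.8 and 43.6 CPM in WT_to_WT and 18.4, 33.2 and 13.6 CPM in St2KO_to_St2KO, without overlap (log2 fold change -1.11, SE 0.46, edgeR adjusted p = 0.332). Upp1, a uridine phosphorylase of nucleoside salvage, read 246, 84.4 and 165 CPM against 30.2, 33.4 and 20 CPM (log2 fold change -2.57, SE 0.48, edgeR adjusted p = 0.136). H2-Q5, a class I related gene with near copies that the annotation lists as a polymorphic pseudogene, read 6.1, 11.5 and 15 CPM against 0.0764, 0.396 and 0 CPM (log2 fold change -6.03, SE 0.87, edgeR adjusted p = 0.0647).

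By chromosome, the share of tested genes with an edgeR unadjusted p under 0.05 lay between 11.4% (chromosome 7) and 16.6% (chromosome 6), and chromosome 1, which holds Il1rl1, had 15.8%.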
